A study of Mus musculus with 8 samples.

Results

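The genes described are 35 members of the mouse sterol and fatty acid synthesis programme that the sterol regulatory element-binding proteins (SREBPs) drive. They were chosen by gene symbol: 19 enzymes and carriers of the sterol branch, 5 regulators and 11 genes of the fatty acid branch. Of the 35, 32 had a named probe on the array, and each gene was read from its brightest probe. Acat2, Mvk and Fdft1 had no probe named here. Of these 32 genes, 31 passed the filter on dim probes and were tested among 9871 genes, out of 16593 genes with a named probe. Above background on both arrays of every group were 27 genes. Idi1, Sc5d, Dhcr7 and Elovl6 passed through some groups only, and Idi1 passed through the unstimulated knockout group alone. Fads2, a fatty acid desaturase, was not above background on any array and was not tested.

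SREBPs are transcription factors made as membrane proteins of the endoplasmic reticulum. When membrane cholesterol is low, the escort protein SCAP carries them to the Golgi, where proteases free the active part. When cholesterol or certain oxysterols are high, INSIG proteins hold SCAP in the endoplasmic reticulum and the programme is quiet. SREBP-2, from Srebf2, mainly drives cholesterol synthesis, and SREBP-1, from Srebf1, mainly drives fatty acid synthesis, with overlap between the targets. In macrophages, cholesterol synthesis, storage and efflux are adjusted during activation.

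The cells were peritoneal macrophages, the phagocytes of the abdominal cavity, from naive C57BL/6 mice. They were either wild type (WT) or Fcg-chain KO (KO), a line without the signalling chain that activating Fc receptors share, encoded by Fcer1g. All groups share an overnight culture in serum-containing medium that also held supernatant of L929 cells, which secrete M-CSF, the macrophage growth factor. Cells still floating after that were removed. Each genotype was left unstimulated or given recombinant interleukin-4 (IL-4), a type 2 cytokine, at 10 ng/ml for 6 h. RNA was measured on Illumina Mouse Ref-8 bead arrays, with 2 arrays in each of the 4 groups. No label ties a sample to an animal, so a p-value here covers duplicate spread alone, and the duplicates may be technical. The number of arrays limits the precision.

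Fcer1g read 12988 intensity units on both unstimulated WT arrays and between 85.7 and 91.8 on the 4 KO arrays, not well above background. It was lower in unstimulated KO cells (limma, adjusted p = 2.17e-15). The IL-4 target Chil3 went from 122 and 128 units to 4755 and 5856 in WT, and from 107 and 103 to 4494 and 4674 in KO. Across genes, duplicates correlated at 0.994 to 0.995 and arrays of different groups at 0.97 to 0.988. All 7 macrophage markers with a probe were above background in every group, and their summed intensity was 26940 to 29520. Most of it was Lyz2, which reached the highest intensity of the data, 18303 units, in every group. The sum therefore says little about macrophage content. The 8 T and NK cell markers summed to 994.9 to 1251, and the 4 B cell markers with a probe to 1395 to 2302. The sum over 5 neutrophil markers was 2315 to 2583 in unstimulated WT, 1298 to 1453 in WT with IL-4, 1679 to 1797 in unstimulated KO and 1192 to 1418 in KO with IL-4. Most of it was S100a8, and S100a9 was not above background in any group. The 4 mast cell markers, above background in every group, summed to 1249 to 1595 in unstimulated WT, 1156 to 1460 in WT with IL-4, 971.6 to 1318 in unstimulated KO and 967.1 to 1221 in KO with IL-4. No eosinophil marker of 3 was above background on both arrays of a group. In these bulk samples, fewer cells of a type and less RNA per cell cannot be told apart.

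Promoter sequences of the RefSeq mouse annotation (GRCm38.p6) were matched by symbol for 28 of the 35 genes, in windows of 300 bases from 250 before the start site to 50 after it. The motifs searched, on both strands, were 3: the sterol regulatory element TCACNCCAC, the palindromic E-box CACGTG that SREBP-1 can also bind, and the CCAAT box bound by NF-Y, a common partner of SREBPs. Windows of 5 genes whose IL-4 response is described below are printed, 5′ to 3′ on the gene's own strand. Capitals mark every match to a motif. Hmgcs1 lies at chr13:119690101-119690400 on the plus strand and Cyp51 at chr5:4104648-4104947 on the minus strand. Msmo1 lies at chr8:64733529-64733828 on the minus strand, Insig1 at chr5:28071162-28071461 on the plus strand and Acss2 at chr2:155517793-155518092 on the plus strand.
Hmgcs1: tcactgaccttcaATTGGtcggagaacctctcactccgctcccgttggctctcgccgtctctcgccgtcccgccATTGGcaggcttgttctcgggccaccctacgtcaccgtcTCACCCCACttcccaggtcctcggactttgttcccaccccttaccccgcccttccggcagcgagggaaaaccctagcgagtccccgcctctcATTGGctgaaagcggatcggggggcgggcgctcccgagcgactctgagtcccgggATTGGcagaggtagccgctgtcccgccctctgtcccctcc
Cyp51: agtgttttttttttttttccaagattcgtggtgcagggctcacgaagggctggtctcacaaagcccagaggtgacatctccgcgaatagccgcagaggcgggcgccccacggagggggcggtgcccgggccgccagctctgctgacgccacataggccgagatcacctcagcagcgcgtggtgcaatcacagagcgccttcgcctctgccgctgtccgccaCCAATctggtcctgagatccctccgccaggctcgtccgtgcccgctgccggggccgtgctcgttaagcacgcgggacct
Msmo1: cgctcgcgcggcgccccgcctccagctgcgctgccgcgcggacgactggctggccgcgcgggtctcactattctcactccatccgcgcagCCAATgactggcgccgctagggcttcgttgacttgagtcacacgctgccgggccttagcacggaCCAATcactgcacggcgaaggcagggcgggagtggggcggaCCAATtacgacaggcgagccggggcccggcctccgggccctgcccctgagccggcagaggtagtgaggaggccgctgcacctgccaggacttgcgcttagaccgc
Insig1: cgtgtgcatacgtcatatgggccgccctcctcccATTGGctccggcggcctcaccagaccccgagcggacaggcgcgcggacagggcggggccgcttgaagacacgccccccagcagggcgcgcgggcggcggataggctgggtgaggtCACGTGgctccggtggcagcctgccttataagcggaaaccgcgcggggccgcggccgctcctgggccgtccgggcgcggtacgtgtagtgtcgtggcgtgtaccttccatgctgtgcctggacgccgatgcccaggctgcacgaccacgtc
Acss2: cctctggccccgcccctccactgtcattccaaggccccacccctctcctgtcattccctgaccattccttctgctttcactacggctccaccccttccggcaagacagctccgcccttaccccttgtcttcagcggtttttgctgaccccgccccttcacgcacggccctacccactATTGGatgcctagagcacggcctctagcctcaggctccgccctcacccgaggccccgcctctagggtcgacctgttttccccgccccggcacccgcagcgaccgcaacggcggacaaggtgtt

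The Hmgcs1 window holds the sterol regulatory element as TCACCCCAC, which begins 137 bases before the start site, among 4 CCAAT boxes read on the reverse strand. Msmo1 holds 3 CCAAT boxes, at 160, 96 and 55 bases before the start. Insig1 holds an E-box 101 bases before the start and 1 CCAAT box. Cyp51 and Acss2 each hold 1 CCAAT box, 29 and 73 bases before the start. The sterol regulatory element occurred in 1 of 37 member windows (2.7%) and in 1.24% of all 32851 windows. The E-box occurred in 16.2% of member windows and 7.15% of all windows. CCAAT occurred in 64.9% of member windows and 37.4% of all. No motif overlapped another in the 5 windows printed. A match is a description of the letters, and a window without a match says only that these letters are not in it.

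With IL-4, Hmgcs1, Fdps, Sqle, Lss, Cyp51, Msmo1 and Stard4 fell in WT cells, while genes of steps between them, such as Pmvk, Mvd and Idi1, did not pass. Of 16 sterol genes tested, 7 fell and 0 rose by limma at an adjusted p under 0.05, with the adjustment made over the whole array. Over all genes, 8.59% fell, 7.8% rose and 16.4% changed in either direction. At an unadjusted p under 0.05, 9 sterol genes were lower and 0 higher, against 1526 lower and 1289 higher of all 9871. The median log2 difference of the 16 was -0.34, against -0.02 over all genes, and 15 of the 16 differences were negative. In KO cells, 9 of the 16 fell and 0 rose, where 9.85% of all genes fell, 9.38% rose and 19.2% changed. At an unadjusted p under 0.05, 11 were lower and 0 higher, against 1562 lower and 1457 higher of all 9871. The median there was -0.46, against -0.01 over all genes, and 16 of 16 were negative. Idi1 passed the filter only where it was high, in unstimulated KO, and Sc5d only in the unstimulated groups, so the filter favours a negative sign for both and the call of Sc5d. Without background correction the medians were -0.23 in WT and -0.26 in KO. Of the 4 neutrophil markers tested, 3 fell with IL-4 in WT and 1 in KO, and of the 7 macrophage markers Gata6 rose and Cd14 fell in both. Camp, among the 3, passed the filter only through unstimulated WT, so the filter favours its fall there. Of the 7 T and NK cell markers tested, Cd3d (-0.63, adjusted p = 0.0341) and Cd2 (-0.71, adjusted p = 0.00551) fell in WT and 0 passed in KO. These markers did not move together: 4 of the 7 differences in WT were negative, and Il7r differed by 0.58 (adjusted p = 0.104). The part of these in the sterol differences was not tested. All differences below are log2 values of background-corrected intensity, and those of dim genes depend on the correction.

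Hmgcs1, the enzyme that makes HMG-CoA at the start of the mevalonate pathway, read 2201 and 1879.8 units in unstimulated WT and 749 and 815 with IL-4. In KO it read 2376 and 2277 unstimulated and 836 and 675 with IL-4. All 4 unstimulated arrays were above all 4 IL-4 arrays. The difference was -1.46 ± 0.12 (SE, n = 2 against 2; adjusted p = 2.67e-06) in WT and -1.72 ± 0.12 (adjusted p = 4.27e-07) in KO. These are 2.75-fold and 3.30-fold lower levels. The next measured steps, which phosphorylate, decarboxylate and isomerise the mevalonate products, moved less. Pmvk read 137 and 136 units in WT and 125 and 127 with IL-4, a difference of -0.24 (adjusted p = 0.283), and -0.37 in KO (adjusted p = 0.0849). Mvd differed by -0.21 (adjusted p = 0.466) in WT and -0.34 (adjusted p = 0.181) in KO. Idi1 lay between 90.1 and 98.8 units, at the edge of background, and was not well above background on any IL-4 array.

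Fdps, which joins isoprene units into farnesyl diphosphate, read 977 and 992 units in WT and 336 and 385 with IL-4. In KO it went from 1291 and 1629.8 to 443 and 429. The groups did not overlap in either genotype, and the differences were -1.64 ± 0.12 (adjusted p = 1.2e-06) and -1.90 ± 0.12 (adjusted p = 2.1e-07). Sqle, the first oxygenation step and a control point of the committed sterol pathway, showed the largest fall of the 31 genes in both genotypes. It read 671 and 639 units in WT and 199.8 and 213 with IL-4, and in KO 911 and 1023 against 240.1 and 204. The difference was -2.07 ± 0.13 (adjusted p = 1.38e-07) in WT and -2.53 ± 0.13 (adjusted p = 1.48e-08) in KO. A second, dimmer Sqle probe gave -1.55 in WT and -2.25 in KO.

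Lss, which closes squalene epoxide into the ring of lanosterol, was a smaller and less settled case. It read 138 and 149 units in WT and 127 and 108 with IL-4, and in KO 160.2 and 171 against 129 and 123. The differences were -0.60 ± 0.16 (adjusted p = 0.023) in WT and -0.72 ± 0.16 (adjusted p = 0.00689) in KO. Without unstimulated WT replicate 1, replicate 2 or WT IL-4 replicate 2, the adjusted p in WT was 0.055, 0.151 and 0.253. Without unstimulated KO replicate 2 or KO IL-4 replicate 2, that in KO was 0.0628 and 0.0558.

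Cyp51, the lanosterol demethylase whose promoter is printed above, read 264 and 235 units in WT and 122 and 136 with IL-4. In KO it went from 326 and 401 to 139.6 and 123, so that the IL-4 arrays of both genotypes lay within the same narrow range. The difference was -1.54 ± 0.17 (adjusted p = 3.36e-05) in WT and -2.18 ± 0.17 (adjusted p = 1.14e-06) in KO. Without background correction, the KO fall of 4.52-fold read 2.76-fold. Of the 2 reductases that act next, Lbr, also the lamin B receptor of the nuclear envelope, read 599 and 584 units against 522 and 469 in WT, a difference of -0.29 (adjusted p = 0.086). It differed by -0.29 in KO as well (adjusted p = 0.0798). Tm7sf2 lay between 94.3 and 103 units on all arrays, with differences of -0.15 and -0.10 that did not pass.

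Msmo1, the sterol methyl oxidase, read 561 and 500.4 units in WT and 216 and 237 with IL-4, and in KO 655 and 727 against 252 and 205. The groups did not overlap, and the differences were -1.53 ± 0.14 (adjusted p = 8.12e-06) and -1.96 ± 0.14 (adjusted p = 5.73e-07). Nsdhl, the dehydrogenase that follows Msmo1 in the same demethylation, read 135 and 140.1 units in WT against 121 and 119.6, and in KO 139 and 169.8 against 125 and 131. It differed by -0.40 (adjusted p = 0.112) in WT and by -0.48 ± 0.16 (adjusted p = 0.0491) in KO. The KO call was lost in 10 of 18 settings, some of which left out no array. Without unstimulated KO replicate 2 the KO difference was -0.22. Other Nsdhl probes gave -0.32, -0.41 and -0.16 in WT and -0.65, -0.56 and -0.27 in KO. Among the last steps, Sc5d, a sterol desaturase near background, read 102 and 105 units in unstimulated KO and 95.6 and 90.7 with IL-4. Its difference in KO was -0.45 ± 0.15 (adjusted p = 0.0491), and this call was lost in 8 of 17 settings, some with all arrays kept. Without unstimulated KO replicate 2 the difference was -0.39. The isomerase Ebp differed by -0.14 and -0.12, and the reductase Dhcr7 by 0.18 and -0.02, none past the threshold.

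Stard4, a soluble carrier that moves cholesterol between membranes, read 193 and 168 units in WT and 113 and 112 with IL-4. In KO it went from 211 and 273 to 109.6 and 112. The differences were -1.27 ± 0.16 (adjusted p = 0.000141) in WT and -1.94 ± 0.16 (adjusted p = 2.71e-06) in KO. Because the IL-4 values lay close to the background threshold of about 93.2 units, the folds depended on the correction: 2.42-fold read 1.60-fold in WT without it, and 3.84-fold read 2.17-fold in KO.

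**Figure D1:**
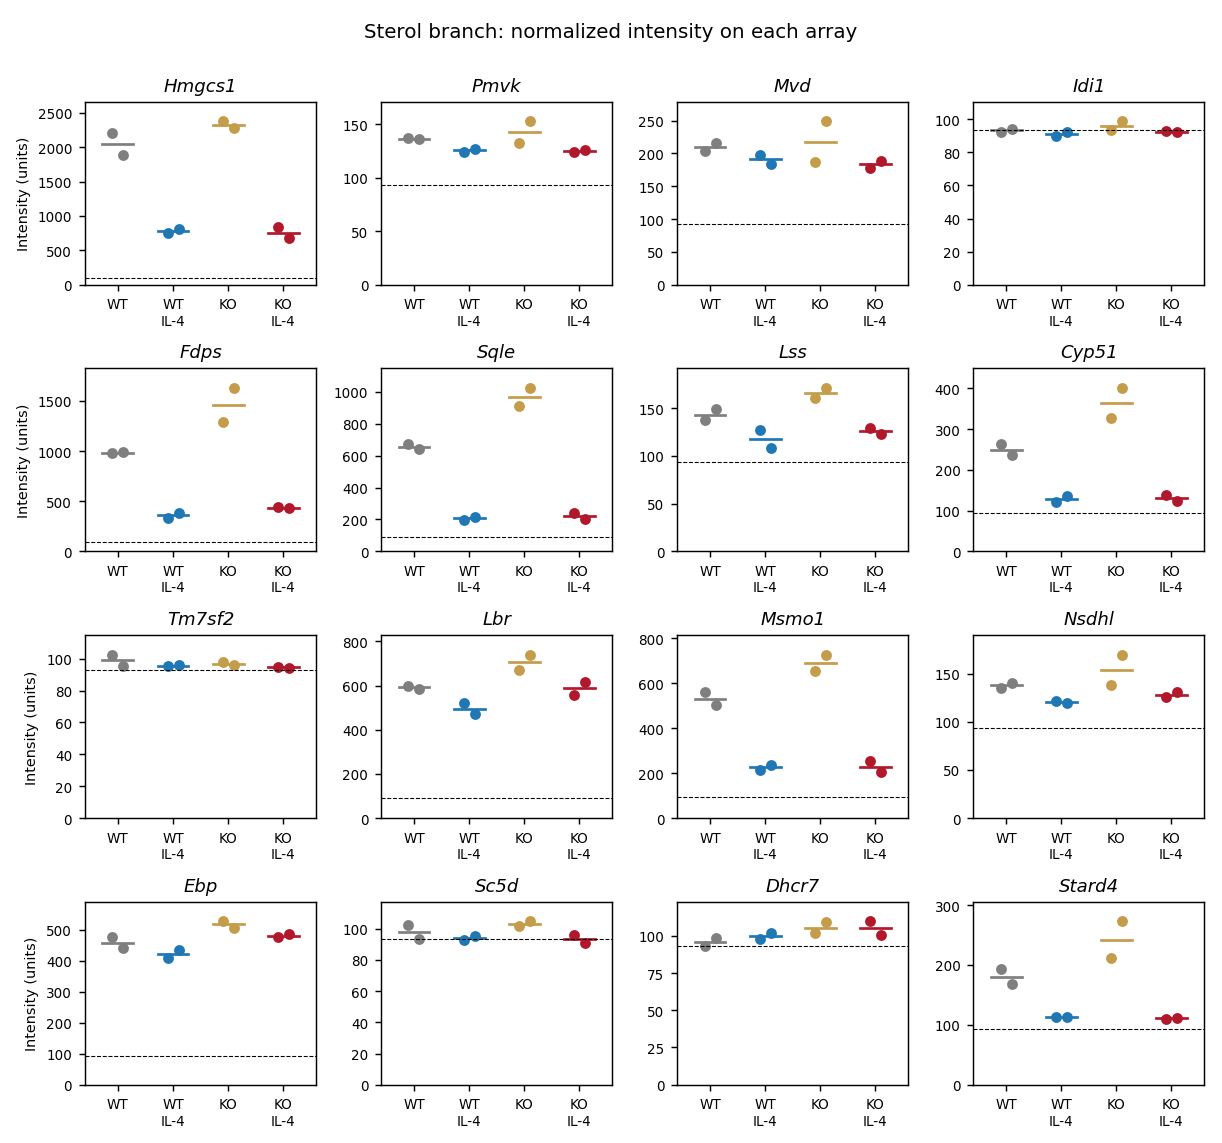
Normalized intensity (units, linear axis from 0) of the 16 tested sterol genes on each array; points are the 2 arrays of a group, bars their mean and the dashed line the background threshold. Hmgcs1, Fdps, Sqle, Cyp51, Msmo1 and Stard4 are lower on all IL-4 arrays of both genotypes, while Tm7sf2, Idi1, Sc5d and Dhcr7 lie near the line.

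Ranked among all 9871 genes from the most lowered, Sqle was at 4 in WT and 2 in KO, Fdps at 7 and 11, Cyp51 at 11 and 5, Msmo1 at 13 and 8, Hmgcs1 at 14 and 16, and Stard4 at 32 and 9. The IL-4 comparisons of the genotypes set different arrays against each other, but the same fit gave both the same estimate of spread for each gene. Their calls are therefore not independent, and the shared estimate bears on the overlap that follows. All 7 sterol genes lower in WT were among the 9 lower in KO, 100% of the WT calls and 77.8% of the KO calls. For all genes, 572 were lower in both, which is 67.5% of the WT calls and 58.8% of the KO calls.

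Among the regulators, Srebf2 and Insig1, themselves targets of SREBP-2, fell with IL-4 in both genotypes. In WT, 2 of 5 regulators fell and 0 rose, against 8.59% and 7.8% of all genes, with a median difference of -0.43. In KO, 3 fell and 1 rose, against 9.85% and 9.38%, with a median of -0.54. Without background correction the medians were -0.25 and -0.27. Srebf2 read 289 and 304 units in WT and 197 and 209 with IL-4, and in KO 304 and 314 against 198 and 221. The groups did not overlap. The difference was -0.75 ± 0.12 (adjusted p = 0.000669) in WT and -0.76 ± 0.12 (adjusted p = 0.00049) in KO, or 1.68-fold and 1.70-fold.

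Insig1, which retains SCAP when sterols are high, read 146 and 136 units in WT and 119 and 118 with IL-4, and in KO 143 and 167 against 129 and 124. The differences were -0.50 ± 0.15 (adjusted p = 0.0311) and -0.54 ± 0.15 (adjusted p = 0.0187). In WT the adjusted p was 0.054 to 0.199 when any of the 4 WT arrays was left out. In KO it was 0.206 without unstimulated replicate 2 and 0.116 without IL-4 replicate 2. Other Insig1 probes were nearly as bright and gave -0.50 and -0.47 in WT and -0.90 and -1.04 in KO. Insig2, its relative, read 323 and 259 units in WT and 243 and 220.3 with IL-4, and in KO 308 and 290.0 against 248 and 249. It differed by -0.43 ± 0.14 (adjusted p = 0.0512) in WT and -0.35 (adjusted p = 0.098) in KO. Blocking on replicate number brought the WT difference past the threshold (adjusted p = 0.0274), as did some other settings. A second, dimmer Insig2 probe, with a mean of 206 units, gave -0.25 in WT and -0.13 in KO.

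Srebf1, the gene of the fatty acid arm, was dim. It read 106 and 102 units in WT against 102 and 99.4, a difference of -0.13 (adjusted p = 0.54). In KO it read 110.0 and 106 against 94.9 and 94.5, and fell by 0.54 on the log2 scale (SE 0.12, adjusted p = 0.00741). The KO call was lost without unstimulated KO replicate 1 (adjusted p = 0.0702), and the WT and KO responses did not pass as different (-0.41, adjusted p = 0.737). Scap, the escort, ran the other way. It read 139 and 153 units in WT against 161 and 157, a difference of 0.22 (adjusted p = 0.302). In KO it read 130.1 and 134 against 151 and 157, a rise of 0.41 ± 0.13 (adjusted p = 0.0365). That call was lost when any of the 4 KO arrays was left out (adjusted p = 0.0801 to 0.188).

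**Figure D2:**
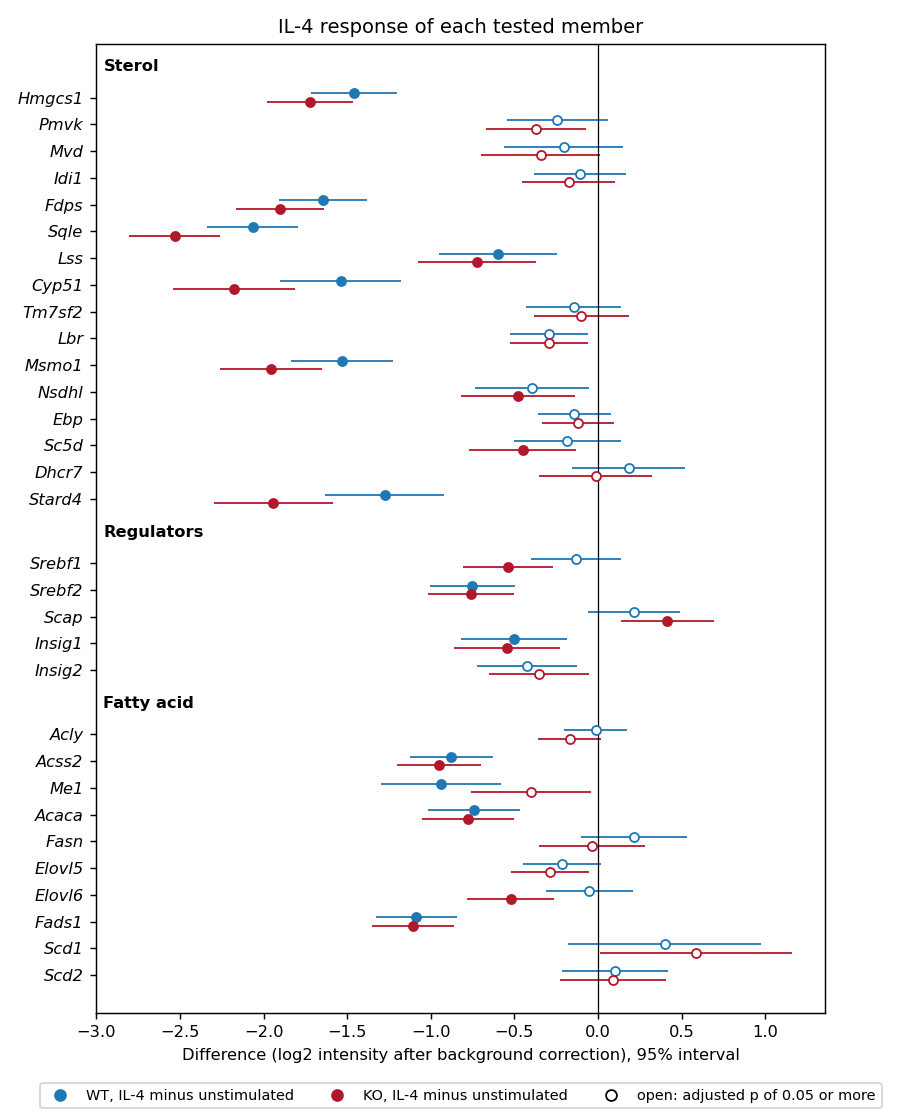
IL-4 minus unstimulated difference (log2 intensity after background correction) with its 95% interval for the 31 tested genes, in WT (blue) and KO (red); filled points passed an adjusted p under 0.05. The sterol branch reaches -2.53 at Sqle in KO, while the fatty acid branch does not go below -1.11, at Fads1.

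The fatty acid branch, read apart, was mixed. In WT, 4 of 10 genes tested fell (Acss2, Me1, Acaca and Fads1) and 0 rose, against 8.59% and 7.8% of all genes, with a median difference of -0.14. In KO, 4 fell (Acss2, Acaca, Elovl6 and Fads1) and 0 rose, against 9.85% and 9.38% of all genes, with a median of -0.34. Without background correction the medians were -0.11 and -0.17. Elovl6 was above background on 1 array of KO with IL-4 and passed the filter through the other groups. Of the 4 WT calls, 3 were also KO calls, 75.0% of each list, near the 67.5% of WT and 58.8% of KO calls shared over all genes. At an unadjusted p under 0.05, 4 genes of the branch were lower and 0 higher in WT, and 6 lower and 1 higher in KO. Over all 9871 genes, 1526 were lower and 1289 higher at that level in WT, and 1562 and 1457 in KO. Fasn, Scd1 and Scd2, well-known targets of SREBP-1 in liver, did not pass in either genotype.

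Among the genes that supply carbon and reducing power, Acss2 makes acetyl-CoA from acetate. It read 223 and 229 units in WT and 152 and 153 with IL-4, and in KO 169 and 174 against 119 and 121. The differences were -0.88 ± 0.12 (adjusted p = 0.000167) and -0.95 ± 0.12 (adjusted p = 6.81e-05). A second Acss2 probe near background gave -0.31 and 0.14. Acly, which makes acetyl-CoA from citrate, read between 2025 and 2109 units on the 4 WT arrays, with a difference of -0.01 (95% interval -0.20 to 0.17, adjusted p = 0.942). In KO it differed by -0.17 (adjusted p = 0.211). Me1, malic enzyme, a source of NADPH, read 124 and 136 units in WT and 94.8 and 104 with IL-4, and fell by 0.94 (SE 0.17, adjusted p = 0.00161). In KO it read 118 and 109 against 98.5 and 105, a difference of -0.40 (adjusted p = 0.116). A second, dimmer Me1 probe gave -0.36 in WT and -0.37 in KO.

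Acaca, acetyl-CoA carboxylase, the committed step of fatty acid synthesis, read 668 and 840.1 units in WT and 484 and 464 with IL-4. In KO it went from 1021 and 1028 to 681 and 574. The differences were -0.74 ± 0.13 (adjusted p = 0.00124) and -0.78 ± 0.13 (adjusted p = 0.000707), with no overlap between the groups of a genotype. Fasn, the fatty acid synthase, lay between 94.0 and 106 units on all 8 arrays, near background, and differed by 0.21 (adjusted p = 0.379) and -0.03 (adjusted p = 0.909).

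Of the genes that lengthen and desaturate fatty acids, Fads1, which makes highly unsaturated fatty acids, showed the largest fall of the branch. It read 953 and 1085 units in WT and 497 and 530.3 with IL-4, and in KO 905 and 882 against 486 and 417. The differences were -1.09 ± 0.11 (adjusted p = 2.26e-05) and -1.11 ± 0.11 (adjusted p = 1.61e-05). Elovl5, an elongase of polyunsaturated chains, read 1067 and 908 units against 874 and 838 in WT, a difference of -0.22 (adjusted p = 0.211), and differed by -0.29 (adjusted p = 0.0869) in KO. Elovl6, which lengthens saturated chains, stayed between 92.7 and 106 units. It differed by -0.05 (adjusted p = 0.828) in WT and fell by 0.52 in KO (SE 0.12, adjusted p = 0.00753), a call lost without replicate 2 of either KO group (adjusted p = 0.0576 and 0.056).

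Scd1, the desaturase that makes oleate, varied widely between duplicates and did not pass. It read 245 and 179 units in WT and 307 and 212 with IL-4, and in KO 249 and 299 against 305 and 466. The WT groups overlapped and the KO groups did not. The differences were 0.40 ± 0.27 (adjusted p = 0.368) and 0.58 ± 0.27 (adjusted p = 0.156). Without KO IL-4 replicate 1 the KO difference was 0.96 (adjusted p = 0.0366). Its relative Scd2 stayed between 98.7 and 109.5 units and differed by 0.10 and 0.09.

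**Figure D3:**
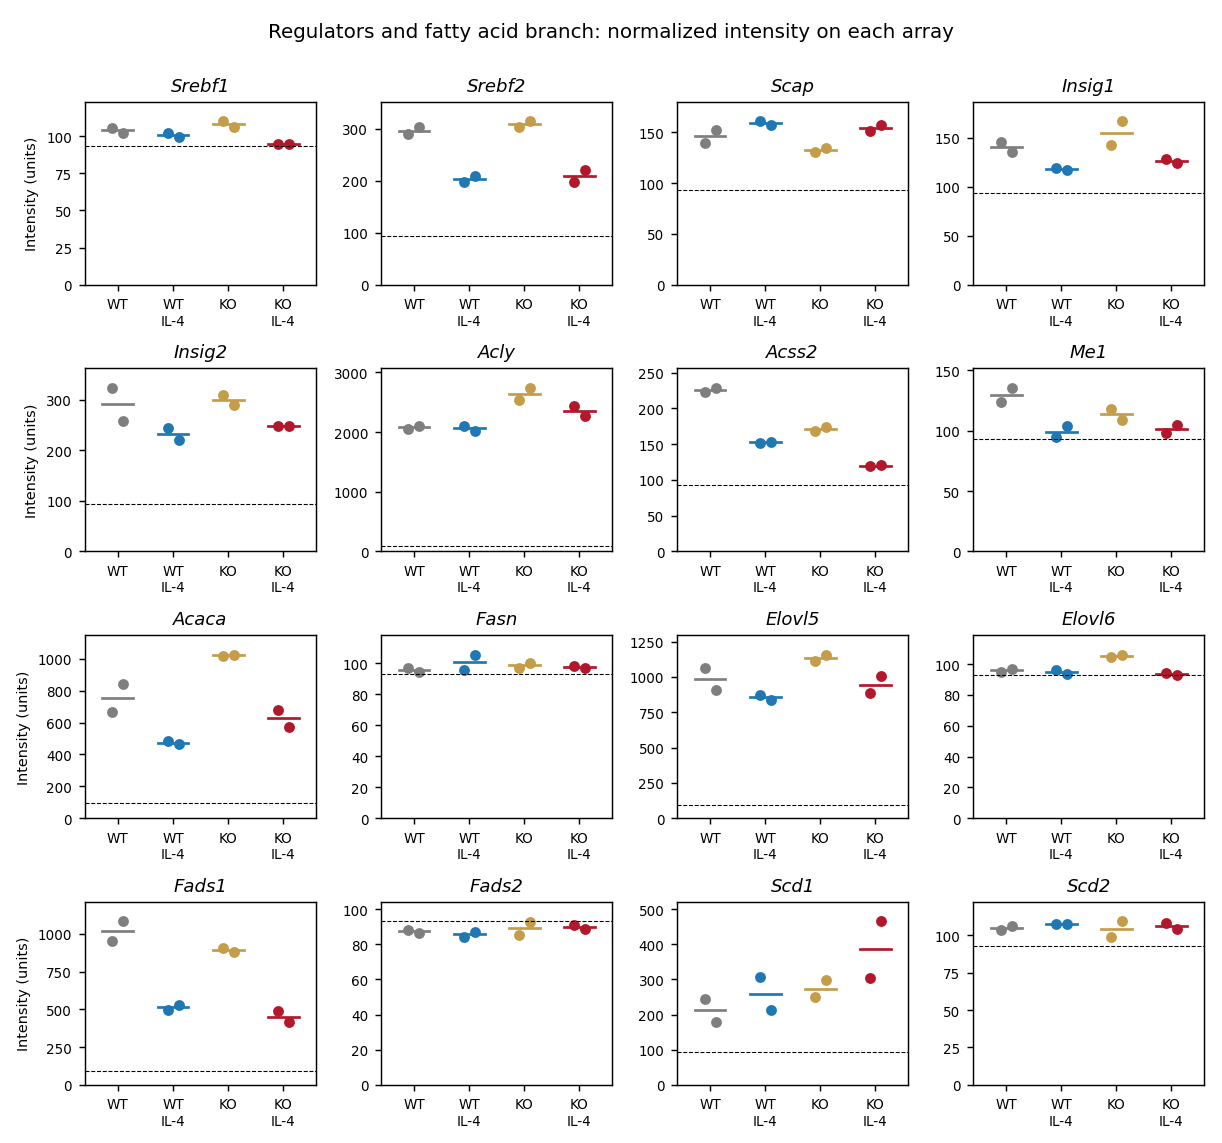
Normalized intensity (units, linear axis from 0) of the 5 regulators and the 11 fatty acid genes on each array, with group means as bars and the background threshold dashed. Srebf2, Acss2, Acaca and Fads1 are lower on all IL-4 arrays of each genotype, Fads2 lies below the line and Scd1 spreads from 179 to 466 units.

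Unstimulated KO cells held higher levels of several sterol genes than unstimulated WT cells. Of 16 sterol genes, 4 were higher (Fdps, Sqle, Cyp51 and Stard4) and 0 lower, where 2.61% of all genes were higher, 2.61% lower and 5.23% changed in either direction. The median difference was 0.28, against 0.00 over all genes, and 0.18 without background correction. Among the 16, Idi1 (0.13) passed the filter through unstimulated KO alone. Dhcr7 (0.40) passed through every group but unstimulated WT. The filter therefore favours a positive sign for both here. From the values above, the differences were 0.59 ± 0.12 for Fdps (adjusted p = 0.0108), 0.61 ± 0.13 for Sqle (adjusted p = 0.0102), 0.69 ± 0.17 for Cyp51 (adjusted p = 0.0295) and 0.61 ± 0.16 for Stard4 (adjusted p = 0.0486), between 1.51-fold and 1.61-fold. For each of the 4 genes, both KO arrays were above both WT arrays. The same held for genes that did not pass, such as Hmgcs1, Lss and Msmo1. Because the 4 were picked by a test on these same arrays, the separation adds no support. Hmgcs1 differed by 0.20 (adjusted p = 0.474) and Msmo1 by 0.43 (adjusted p = 0.121).

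These genotype calls were lost when some arrays were left out. Unstimulated KO replicate 2 was above replicate 1 in 13 of 16 sterol genes, with a median gap of 0.22. Without it, the adjusted p was 0.153 for Fdps, 0.123 for Sqle, 0.276 for Cyp51 and 0.42 for Stard4, and 0 of the 16 passed. The differences were then 0.42, 0.52, 0.51 and 0.36. Leaving out unstimulated WT replicate 1 or replicate 2 also left 0 of 16, with differences of 0.58, 0.65, 0.80 and 0.77 without the first and 0.60, 0.57, 0.58 and 0.45 without the second. Without unstimulated KO replicate 1 all 4 genes passed, with differences from 0.70 to 0.87. Stard4 was lost in 11 of 18 settings, some of which left out no array. The median of the 16 sterol genes, set against the unstimulated WT mean, was 0.03 and -0.03 on the WT arrays and 0.23 and 0.40 on the KO arrays. The neutrophil marker sum was lower in unstimulated KO than WT, as given above, with 2 of 4 markers lower by the test. Retnlg was among them and passed the filter through the WT groups alone, which favours a lower value in KO. Of the 4 mast cell markers, all were lower in KO (median -0.49) and 0 passed by limma (Mcpt4 -0.67, adjusted p = 0.0572). The macrophage markers Adgre1 and Gata6 were higher and Cd14 lower, and the part of these in the sterol differences was not tested.

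Of the 5 regulators, each read from its brightest probe, 0 passed between unstimulated genotypes by limma, 0 also at an unadjusted p under 0.05 (median 0.08). Insig1 differed by 0.24 on that probe, but other Insig1 probes, nearly as bright, gave 0.54 and 0.53. In the fatty acid branch, 2 of 10 genes were higher in KO and 1 was lower, against 2.61% of all genes in each direction, with a median of 0.19. Acly read 2059.8 and 2109 units in WT and 2543 and 2741 in KO, 0.35 ± 0.09 higher (adjusted p = 0.0317). Acaca was 0.49 ± 0.13 higher (adjusted p = 0.0409). Both calls were lost without unstimulated KO replicate 2 (adjusted p = 0.231 and 0.185), among other settings. Acss2 ran the other way, at 169 and 174 units in KO against 223 and 229 in WT, a difference of -0.60 ± 0.12 (adjusted p = 0.00667). Without unstimulated WT replicate 2 or KO replicate 1 its adjusted p was 0.0601 and 0.0609.

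With IL-4, 0 of 16 sterol genes and 0 of 5 regulators passed between the genotypes by limma, with medians of 0.06 and 0.07. Of all genes, 2.44% were higher in KO, 2.65% lower and 5.1% changed in either direction. At an unadjusted p under 0.05, 3 sterol genes and 0 regulators were higher in KO, and 0 were lower, against 929 higher and 718 lower of all 9871. Leaving out any array left 0 sterol genes higher. The 95% interval of the difference was -0.13 to 0.41 for Sqle, -0.31 to 0.41 for Cyp51, -0.30 to 0.31 for Msmo1 and -0.32 to 0.20 for Hmgcs1. Fdps had the largest sterol difference, 0.33 (95% interval 0.07 to 0.60, adjusted p = 0.171). Acss2 was the 1 fatty acid gene of 10 that passed. It read 119 and 121 units in KO and 152 and 153 in WT with IL-4, a difference of -0.68 ± 0.12 (adjusted p = 0.00281). The mean of both Acss2 probes gave -0.30 (adjusted p = 0.171), so this call held for the brighter probe alone. Acaca read 681 and 574 units in KO against 484 and 464 in WT, 0.45 ± 0.13 higher (adjusted p = 0.0593). Cd3d, Cd3e and Nkg7, of 7 T and NK cell markers tested, were higher in KO with IL-4 and 0 were lower by limma. Il7r (-0.70, adjusted p = 0.109) and Klrb1c (-0.15) differed the other way and did not pass. The macrophage markers Adgre1 (0.59) and Gata6 (0.46) were higher in KO, and Cd14 (-0.55) and the neutrophil marker Retnlg (-0.73) were lower. Retnlg passed the filter through the WT groups alone, which favours a lower value in KO. All 4 mast cell markers were lower (median -0.36) and 0 passed. The part of these in the differences was not tested.

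**Figure D4:**
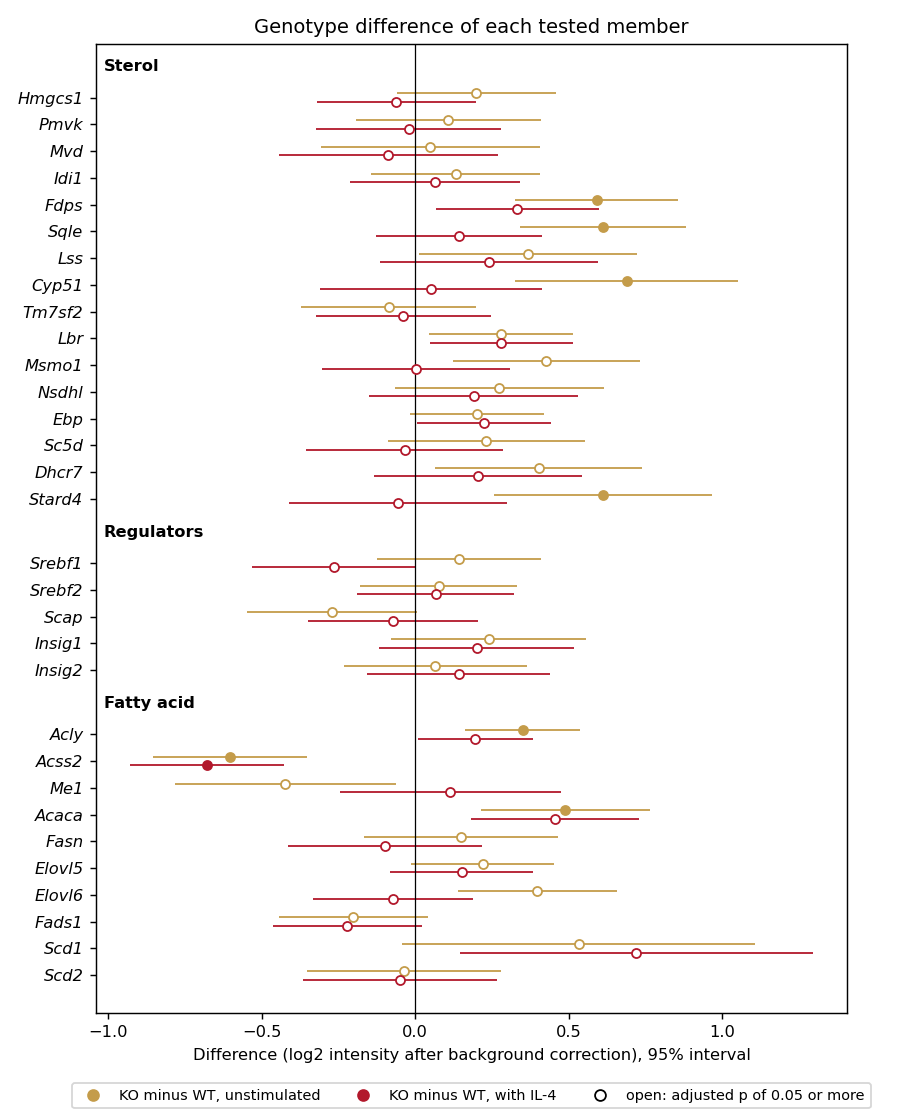
KO minus WT difference (log2 intensity after background correction) with its 95% interval for the 31 tested genes, unstimulated (tan) and with IL-4 (red); filled points passed an adjusted p under 0.05. Fdps, Sqle, Cyp51, Stard4, Acly and Acaca are filled on the positive side without IL-4, and Acss2 is filled on the negative side in both conditions.

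The size of the IL-4 response was compared between genotypes by the difference of the responses. By limma, 0 of the 31 genes passed, where 12 of 9871 genes did (0.122%), 0.0405% with a higher and 0.081% with a lower value in KO. At an unadjusted p under 0.05, 1 of the 31 was higher and 5 were lower, among 650 of all genes. The median over the 16 sterol genes was -0.17, that is a larger fall in KO, against 0.01 over all genes. The values were -0.67 ± 0.23 for Stard4 (95% interval -1.17 to -0.16, adjusted p = 0.634), -0.64 ± 0.24 for Cyp51 (-1.15 to -0.12, adjusted p = 0.648) and -0.47 ± 0.18 for Sqle (-0.85 to -0.08, adjusted p = 0.65). For Hmgcs1 the interval was -0.63 to 0.10, and for Fdps -0.63 to 0.12. Srebf2 differed by -0.01, with an interval of -0.37 to 0.35, and the dim Srebf1 by -0.41 (-0.78 to -0.03, adjusted p = 0.737). In the fatty acid branch, Me1 differed by 0.54 ± 0.24 (0.03 to 1.04, adjusted p = 0.737), which the second Me1 probe did not show. Elovl6, near background, differed the other way, by -0.47 ± 0.17 (-0.84 to -0.10, adjusted p = 0.644). Fads1 differed by -0.02 (-0.36 to 0.32). This comparison uses the same 8 arrays as the genotype comparisons above, so it adds no independent evidence to them.

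**Figure D5:**
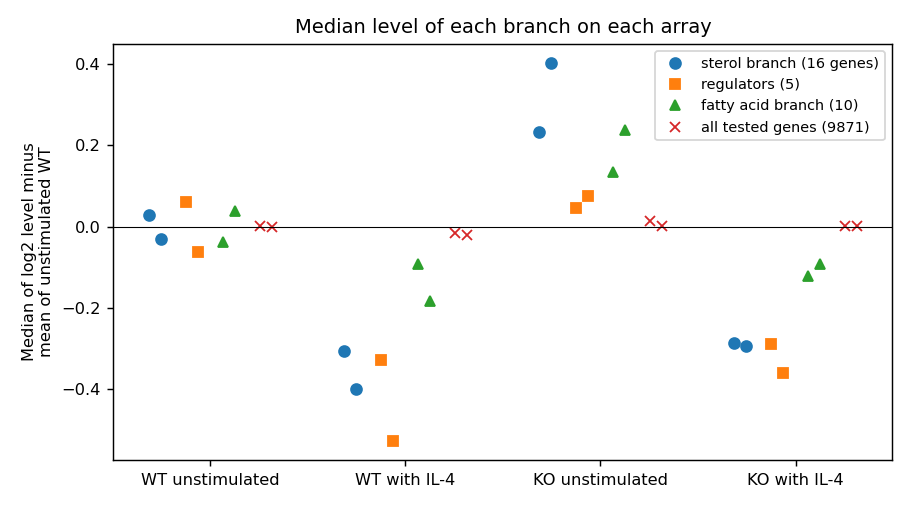
Median over the genes of each branch of the log2 level minus the mean of unstimulated WT, on each of the 8 arrays, with all 9871 tested genes as crosses. The sterol median is -0.31 and -0.40 in WT with IL-4, -0.29 and -0.29 in KO with IL-4, and 0.23 and 0.40 in unstimulated KO; the crosses stay within 0.02 of 0.

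Other genes of the pathway were read from lists of 34 genes, of which 24 had a probe and 23 were tested. Of the 4 other sterol synthesis genes tested, 2 fell in both genotypes, against 8.59% of all genes in WT and 9.85% in KO. Hsd17b7, the reductase that completes the demethylation Msmo1 begins, read 529 and 466 units in WT and 194 and 239 with IL-4, and in KO 527 and 585 against 249 and 215. It differed by -1.53 (adjusted p = 1.43e-05) and -1.57 (adjusted p = 9.66e-06). Aacs, which makes acetoacetyl-CoA in the cytosol, differed by -0.50 (adjusted p = 0.0178) and -0.82 (adjusted p = 0.000529). Of the 4 genes of SREBP processing tested (Mbtps1, Mbtps2, Erlin1 and Erlin2), 0 passed in any comparison by limma, and 0 had an unadjusted p under 0.05.

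Of 9 other lipid synthesis genes tested, 3 fell in WT and 2 in KO, against 8.59% and 9.85% of all genes. Mid1ip1, whose protein activates acetyl-CoA carboxylase, read 1064 and 1018 units in WT and 474 and 409 with IL-4, and in KO 1269 and 1260.1 against 482 and 471. It differed by -1.38 (adjusted p = 1.25e-06) and -1.54 (adjusted p = 3.33e-07). Tecr, a reductase of very long chain synthesis, differed by -0.40 in both (adjusted p = 0.0187 and 0.0151), and Acsl3 fell in WT by 0.51 (adjusted p = 0.0188).

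Of 6 genes of sterol storage, transport and efflux tested, 2 rose with IL-4 in both genotypes, against 7.8% of all genes in WT and 9.38% in KO. In KO 2 also fell, Nr1h3 and Cyp27a1, against 9.85% of all genes. Cyp27a1, a sterol hydroxylase of mitochondria, read 115 and 112 units in WT and 105 and 101 with IL-4, and in KO 135 and 133 against 109 and 112. It fell in KO by 0.60 (adjusted p = 0.00406), differed by -0.34 in WT (adjusted p = 0.0883) and was 0.51 higher in unstimulated KO than WT (adjusted p = 0.0299). Ch25h, which makes an oxysterol known to hold SREBPs in the endoplasmic reticulum, read 1708 and 3243 units in WT and 6118 and 6839.8 with IL-4, and in KO 2237 and 1708 against 5235 and 5054. It rose by 1.49 (adjusted p = 0.000374) and 1.43 (adjusted p = 0.000401), and its unstimulated arrays spread widely. Abcg1, a cholesterol exporter, read 94.2 and 93.2 units in WT and 109 and 104 with IL-4, and in KO 98.5 and 91.4 against 135 and 157. It rose by 0.54 (adjusted p = 0.0318) and 1.45 (adjusted p = 2.98e-05), from near background, and the difference of responses was 0.91 (adjusted p = 0.298). Nr1h3, the oxysterol receptor LXR alpha, read 358 and 349 units in WT and 333 and 309 with IL-4, against 221 and 213 and then 159 and 161 in KO. It was lower in KO by 0.93 unstimulated (adjusted p = 0.000191) and by 1.43 with IL-4 (adjusted p = 2.45e-06). It fell with IL-4 in KO by 0.68 (adjusted p = 0.000625), and differed by -0.17 in WT (adjusted p = 0.333).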

How the data were processed

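Total RNA from 8 samples (4 groups of 2, taken from the sample titles) was hybridised to 1-colour Illumina Mouse Ref-8 arrays. The authors deposited normalized intensities, 1 linear value per probe and array. Per the submitters' processing notes GenomeStudio was used, with version and settings not given in the sources used here. The sorted values of the 8 columns differ by at most 0.57 units and the lowest is 78.4, so they were read as quantile-normalized and not background-subtracted. A second table, with 16 columns of signals and detection p-values (8 signals), was not used because its headings match no sample label.

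Intensities were corrected with normexp (saddle fit, offset 16) and taken to log2, with no further normalization. The planned detection filter needed the unused table. In its place a probe counted as above background when it lay over a threshold set on each array, the mode of its dim values plus 1.645 times the SD of those below that mode (93.1 to 93.3 units; 54.2% to 54.9% of probes). Of 25697 probes, 23978 have 1 gene symbol and 1719 are unnamed here; 14458 probes passed on the 2 arrays of 1 or more groups, 13605 of them with a gene, and the brightest probe of each gene gave 9871 genes. A model of 4 group means was fitted with limma 3.58.1 in R 4.3.3 (eBayes with a variance trend, 4 residual and 9.33 prior degrees of freedom), with Benjamini-Hochberg adjustment over all genes and a threshold of 0.05. The fit was tested on simulated data. Figures were drawn with matplotlib 3.10.9.

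The genes, lists and named genes (all 35 members, with array values for those that passed any comparison and for the regulators) were chosen with earlier results of these data known. Alternatives were other background, filter, normalization, probe and variance settings, fits of only the groups compared, a replicate block and leaving out each array. The replicate numbers were not taken to pair samples.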

Additional observations from a re-analysis of the deposited data

How the results depend on the processing

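In 18 settings, 21 of the 38 passing results of single genes passed every time and 0 reversed direction. Of 267 branch medians in these settings, 47 moved by more than the spread between arrays. With the replicate number as a block, the counts of genes that passed were 1712 and 1952 for the IL-4 responses in WT and KO, 567 and 550 for the genotype differences, and 16 for the difference of responses. With the block, 7 and 9 sterol genes were lower with IL-4 in WT and KO, as without it. Insig2 in WT passed with the block (adjusted p = 0.0274), and no other call of the 31 genes changed. The deviations of same-numbered arrays correlated between -0.0929 and 0.232 across groups, and not all were positive, so the numbers were not taken to pair samples.

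Leaving out 1 array at a time gave 974 to 1584 genes for IL-4 in WT, 1129 to 1883 for IL-4 in KO, 293 to 523 between unstimulated genotypes, 257 to 479 between genotypes with IL-4 and 3 to 10 for the difference of responses. Lower sterol genes numbered 6 to 7 in WT and 6 to 10 in KO, regulators 1 to 2 and 2 to 5, and lower fatty acid genes 4 in WT and 3 to 4 in KO. Sterol genes higher in unstimulated KO numbered 0 to 4, and fatty acid genes that passed there 0 to 3 and with IL-4 1 to 2. Among the settings that kept all arrays, KO sterol genes lower numbered 7 to 9, sterol genes higher in unstimulated KO 2 to 4 and WT regulators 2 to 3. Counts that moved by over 1.5 times follow, and the cause was not tested. For the difference of responses, 19 genes passed without background correction, 19 of 16593 with no filter and 4 of 7653 with probes above background on all 8 arrays. With the mean of a gene's probes, 2 sterol genes were higher in unstimulated KO and 0 fatty acid genes passed with IL-4. With no variance trend, 1 fatty acid gene passed between unstimulated genotypes, and with robust eBayes 2 passed with IL-4.

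Genes near the background threshold, such as Idi1, Sc5d, Dhcr7, Tm7sf2, Fasn, Elovl6 and Scd2, limit what the arrays can show. In the uncorrected intensities a change there is compressed by the background signal, and the size of a corrected difference depends on the correction. The KO falls with IL-4 of 1.37-fold for Sc5d and 1.44-fold for Elovl6 read 1.11-fold and 1.13-fold without it. A p above the threshold does not show that the level was the same.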
